A study of Mus musculus with 14 samples.

Results

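The first-intron H3K27ac regions are 4787 intervals of the mouse genome (build mm10) at which chromatin carried histone H3 acetylated at lysine 27 and which lie in the first intron of a transcript. They were taken from a deposited table of 40772 annotated H3K27ac regions, of which they are 11.7%, by an annotation to intron 1 and a width under 3000 bases, and no signal value entered the choice. The widest region kept, in Kremen1 (chr11:5250840-5253836, 2997 bases), had a log2 difference of 0.33 ± 0.26 (SE), and the narrowest one left out, in Zbtb1 (chr12:76376950-76379960, 3011 bases), one of 0.70 ± 0.26. In all, 180 first-intron regions were left out for their width.

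The regions were measured by chromatin immunoprecipitation and sequencing (ChIP-seq) in Y1 cells, an established line from a mouse adrenocortical tumour. After 48 h without serum the cells received 10% fetal bovine serum (FBS), either alone or with 10 ng/ml of fibroblast growth factor 2 (FGF-2), and both groups were harvested at 5 h. H3K27ac was profiled in 2 libraries per group and poly(A) RNA in 3 libraries per group. Both groups share the starvation and the serum, so each difference below is that of FGF-2 added to serum, in a single cell line, at a single dose and time. The pellets were frozen, and the ChIP cells were cross-linked with formaldehyde as they thawed. The labels do not say whether libraries of a group came from separate cultures, so the p-values measure only the spread between these libraries, which may be technical.

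H3K27ac marks active promoters and active enhancers. First introns are often rich in enhancers and alternative start sites, and an enhancer can act on the gene that holds it or on another gene at a distance. FGF-2 binds receptor tyrosine kinases together with heparan sulfate and drives the RAS, RAF and ERK cascade, whose targets include AP-1 and ETS transcription factors. In Y1 cells FGF-2 is known for holding back the proliferation that serum sets off, and the adrenal cortex from which the line comes makes steroids under the control of cAMP.

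The regions lie in or next to 1912 genes and were narrow, with a median width of 604 bases (quartiles 404 and 1084). Their median distance to the nearest annotated start was 17033 bases, from 3001 to 851501, because the annotation gives regions closer to a start to the promoter class. The gene whose intron held the region was also the gene with the nearest start for 4612 regions (96.3%). A single region was found in 875 genes, at least 2 in 1037, at least 5 in 262, and the most, 23, in Maml2, a co-activator of Notch.

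A few of these intronic regions contain an annotated start of their own. RefSeq promoter windows (GRCm38.p6, the assembly that mm10 names), which run from 250 bases before to 50 bases after a start, lay in or across 34 of the regions, with 37 windows in all. Of these starts 11 belonged to another transcript of the region's own gene and 26 to other genes, and 24 of the 37 were predicted or unnamed genes. The 4 windows below are shown because each lies wholly inside a region that changed with FGF-2. The 50 bases from the start onwards are in capitals.

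Gm52826, in the intron of Ssh1, chr5:113975069-113975368, plus strand: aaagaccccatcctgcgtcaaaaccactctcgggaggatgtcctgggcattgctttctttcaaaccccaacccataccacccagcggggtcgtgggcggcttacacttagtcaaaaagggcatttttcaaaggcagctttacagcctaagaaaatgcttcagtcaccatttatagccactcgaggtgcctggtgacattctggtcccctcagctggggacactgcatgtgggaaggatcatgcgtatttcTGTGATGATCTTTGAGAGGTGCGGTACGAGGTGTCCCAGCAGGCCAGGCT
Tpst2, a second start of its own, chr5:112296891-112297190, plus strand: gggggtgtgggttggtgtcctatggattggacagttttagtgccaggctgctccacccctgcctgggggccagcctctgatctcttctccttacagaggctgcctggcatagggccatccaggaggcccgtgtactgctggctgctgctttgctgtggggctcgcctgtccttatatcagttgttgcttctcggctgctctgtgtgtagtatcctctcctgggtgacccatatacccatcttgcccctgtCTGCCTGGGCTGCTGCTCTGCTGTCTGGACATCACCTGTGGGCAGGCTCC
Gm29695, in the intron of Lemd1, chr1:132200157-132200456, plus strand: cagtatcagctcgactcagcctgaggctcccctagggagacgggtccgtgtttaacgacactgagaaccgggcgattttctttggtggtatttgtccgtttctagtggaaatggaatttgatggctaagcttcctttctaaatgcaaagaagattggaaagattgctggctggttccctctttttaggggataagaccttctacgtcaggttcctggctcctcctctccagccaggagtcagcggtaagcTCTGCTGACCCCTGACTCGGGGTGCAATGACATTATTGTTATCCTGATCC
Nfyc, a second start of its own, chr4:120815664-120815963, minus strand: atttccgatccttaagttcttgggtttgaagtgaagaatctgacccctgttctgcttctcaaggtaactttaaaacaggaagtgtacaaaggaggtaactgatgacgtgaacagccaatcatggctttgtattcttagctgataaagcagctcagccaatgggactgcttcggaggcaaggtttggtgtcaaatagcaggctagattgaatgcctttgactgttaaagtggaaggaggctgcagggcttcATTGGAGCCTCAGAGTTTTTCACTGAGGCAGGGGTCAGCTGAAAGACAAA

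The GC content of the windows in Ssh1, Tpst2, Lemd1 and Nfyc was 52.7%, 59.7%, 50.0% and 45.3%, beside a median of 52.7% over all 32851 windows of the table and 51.3% over the 37. H3K27ac at the region in Ssh1 (chr5:113974296-113975617), a phosphatase that activates cofilin, was 22.1 and 24.2 in serum and 129 and 117 with FGF-2, a log2 difference of 2.36 ± 0.32. At the region in Tpst2 (chr5:112295444-112297412), a Golgi enzyme that sulfates tyrosines, it was 40.5 and 27.6 in serum and 140 and 150 with FGF-2 (log2 2.08 ± 0.30). The FGF-2 libraries lay above both serum libraries at each of them, and the limma adjusted p was 2.4e-11 in Ssh1 and 4.1e-10 in Tpst2. The region in Lemd1 (chr1:132199629-132200967) went from 28.6 and 23.4 to 55.2 and 69, by 1.22 ± 0.35. The region in Nfyc (chr4:120813686-120816114), which codes for a subunit of the CCAAT-binding factor NF-Y, went the other way, from 223 and 167 to 98.0 and 88 (log2 -1.05 ± 0.27). The call in Nfyc was lost without FGF-2 library 1 (adjusted p = 0.14) and without FGF-2 library 2 (adjusted p = 0.19).

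Motif letters were searched on both strands of the windows as a description. The AP-1 letters TGACTCA occurred in 4 of the 37 windows (10.8%) and in 5.20% of all windows. The letters for steroidogenic factor 1, CAAGGTCA, occurred in 2 (5.41%, against 1.56% of all). These 2 windows overlap on opposite strands within the region in Zranb1, and the match is the same site in both. The letters of TEAD factors, GGAATGT, occurred in 2 (5.41%, against 3.85%). Those of forkhead factors, TGTTTAC, were in 1 (2.70%, against 3.65%) and the E-box CACGTG in 1 (against 7.15%). The ETS letters CGGAAGT (6.42% of all windows) and the cAMP response element TGACGTCA (1.79%) were in none of the 37. None of these motifs was found in the windows of the 6 regions that changed, which are the 4 regions above and those in Rtn4rl1 and Prrx1. The regions with an AP-1 match lay in Ssh1 (a second region), Rab15, Pacsin2 and Mxi1, and none of these passed the test.

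The ChIP libraries held 11840994 to 14156846 fragments, and the RNA libraries 5625004 to 12696426 reads counted in genes. Over the first-intron regions the 2 libraries of a group differed by 2.22 (serum) and 2.21 (FGF-2) times the variance of pure counting. This is more than resampling of the same library would give, but it cannot tell separate cultures from repeats on the same chromatin. Summed RNA of the 8 listed adrenocortical markers was 754 to 962 CPM (reads of a gene scaled to the same total in every library) in serum and 2020 to 3233 with FGF-2, with Nr0b1 at 0, and that of the fibroblast and capsule markers was 3191 to 3961 and 1754 to 2586, with Col1a2 and Dcn at 0. Medulla markers summed to 0.178 at most and had Th and Dbh at 0, and endothelial and blood markers summed to 9.80 at most, with Hbb-bs at 0. Only 5 of the 8 adrenocortical and 2 of the 6 fibroblast and capsule markers had enough reads to test, so few genes can carry a sum. Cyp11a1, one of the 8, was lower with FGF-2, as given below, although the sum was higher. Both first sums differ between the groups, and their part in the results below was not tested. In bulk libraries, fewer cells with a mark or transcript and less of it per cell cannot be told apart.

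H3K27ac rose with FGF-2 at 760 first-intron regions (15.9%) and fell at 162 (3.38%), while 3865 did not pass the test. Over all 40772 regions 12.6% rose and 3.73% fell by the same test. Calls are from limma on log2(signal + 1) at an adjusted p of 0.05, where the signal is the read count in the region scaled to the smallest library. The rises were spread over 436 genes and the falls over 133, and 14 genes had both. The median log2 difference was 0.20, beside 0.11 over all regions, with quartiles of -0.26 and 0.80.

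Levels by library are given for the called sets as a description, since the calls fix their direction. In the regions that rose the median signal was 11.1 and 11.7 in the serum libraries and 42.8 and 36 with FGF-2, a median log2 rise of 1.77. In those that fell the medians were 50.2 and 39.3 in serum and 16.6 and 16 with FGF-2, with a median log2 difference of -1.39. Regions with no call had medians of 23.9 and 20.9 in serum and 25.7 and 23 with FGF-2. The median standard error of a log2 difference was 0.42. Of the 760 regions that rose, 154 had at least 1 serum library at the lowest value of the table, which equals 1 read, and 43 had both there, whereas a single region had both FGF-2 libraries there.

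**Figure D1:**
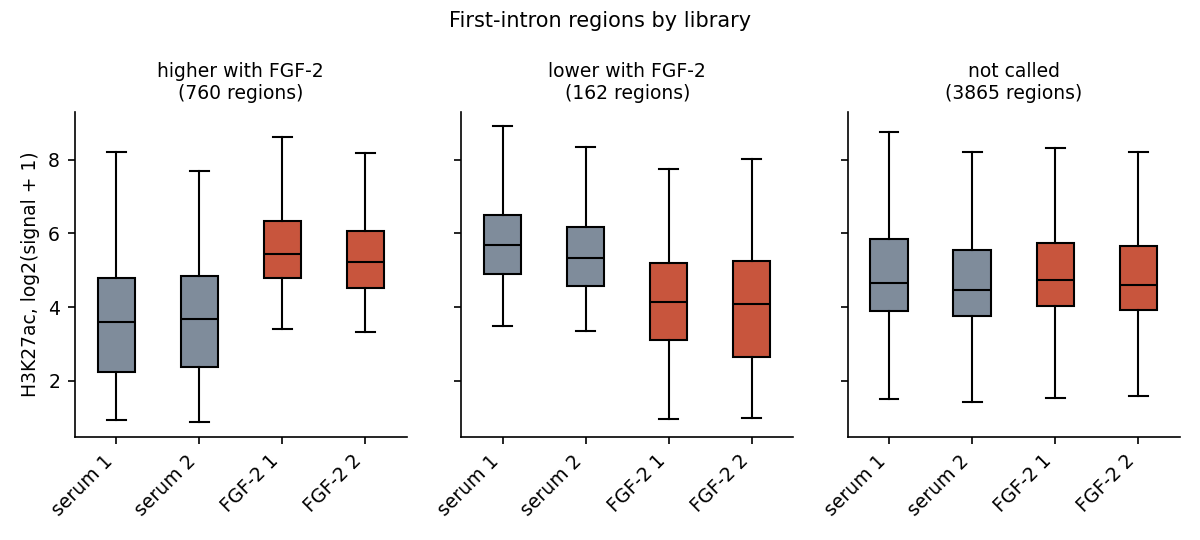
H3K27ac of the first-intron regions as log2(signal + 1) in each of the 4 ChIP libraries, in separate panels for the 760 regions that rose, the 162 that fell and the 3865 with no call. Boxes span the quartiles with a line at the median, whiskers reach the most extreme region within matplotlib's default limit and regions beyond are not drawn. In the first panel both FGF-2 boxes sit above both serum boxes, with median signals of 42.8 and 36 over 11.1 and 11.7, and in the second they sit below.

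The balance of rises and falls depended on the scaling between libraries. The deposited factors follow total fragments, of which 35.3% (serum 1), 28.0% (serum 2), 34.1% (FGF-2 1) and 34.6% (FGF-2 2) lay in regions. The part of the lower share of serum 2 in this balance was not tested. With the deposited scaling 82.4% of the calls were rises, with the median over all regions set to 0 it was 67.2%, with quantile normalization 62.8% and with edgeR and TMM factors on the recovered reads 70.3%. Of the 760 rises 556 were kept with the median set to 0, 453 with quantile normalization and 588 with edgeR and TMM factors, and of the 162 falls 151, 148 and 145. Centring shifts every region alike, so it cannot turn the sign of a clear call, and none turned under the other 2. Without FGF-2 library 1 only 172 regions rose and 72 fell, and without FGF-2 library 2 it was 333 and 78. Without serum library 1, 846 rose and 73 fell.

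The authors' deposited table holds its own test, in which 464 of these regions (9.69%) were higher and 65 (1.36%) lower at an adjusted p of 0.05, against 8.33% and 1.64% of all regions. Several regions named below as called by limma did not pass in that test. Both FGF-2 libraries lay above both serum libraries in 1888 regions (39.4%) and below both in 872 (18.2%), where the same was true of 33.6% and 18.0% of all regions. The share of regions that held a called MACS2 peak was 76.6% and 73.7% in the serum libraries and 86.1% and 81.5% with FGF-2, beside 83.9%, 81.2%, 88.8% and 86.1% of all regions in the same order. Peaks were found in both FGF-2 libraries and in neither serum library at 662 regions, of which 384 rose and none fell. The reverse held at 297 regions, of which 68 fell and none rose. These peak lists come from the same libraries as the signal and are no separate evidence. The input of serum library 2 held 110273836 fragments, and those of the other libraries 12241177 to 15672630. The part of this in the peak shares was not tested.

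Other classes of region are given for scale only. Among regions in later introns 17.7% rose and 4.50% fell, among intergenic regions 17.6% and 5.77%, and among promoters within 1 kb of a start 2.67% and 1.39%. Median log2 differences were 0.24, 0.14 and 0.05 in these classes, beside 0.20 in first introns. Mean signals of 16.8 and 38.1 part the first-intron regions into 3 sets of 1596, 1595 and 1596, in which 14.5%, 16.6% and 16.6% rose. The same limits part the promoters into sets of 810, 1430 and 10244, in which 3.83%, 3.71% and 2.43% rose. Differences between classes were not tested. Within first introns the share that rose stayed between 14.2% and 18.8% over bins of distance to the start, and the share that fell between 1.78% and 4.08%. First-intron regions took 5.07% and 5.37% of the reads in regions in serum and 5.87% and 5.37% with FGF-2, so the ranges touch.

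**Figure D2:**
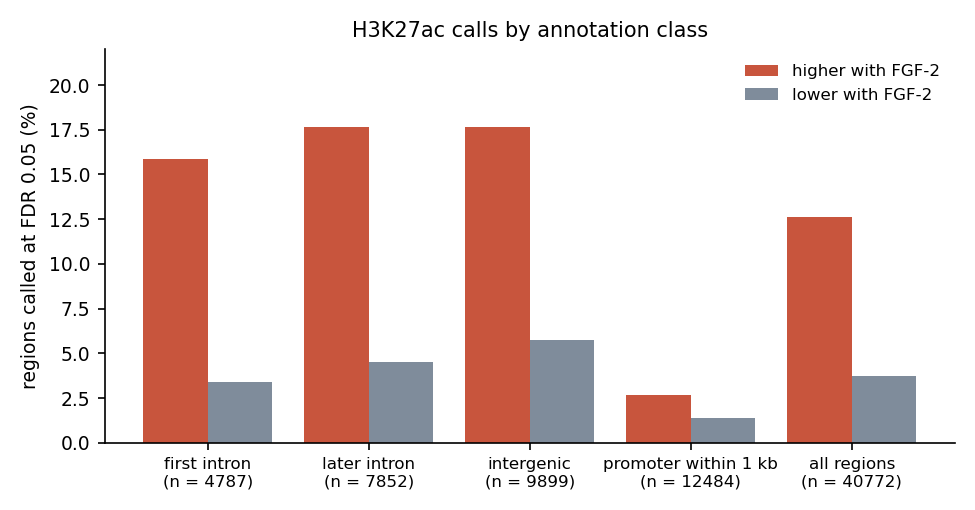
Share of H3K27ac regions called higher (red) or lower (grey) with FGF-2 by annotation class, in percent of the regions of a class, with all regions at the right. First introns stand at 15.9% and 3.38%, near later introns and intergenic regions, and promoters within 1 kb at 2.67% and 1.39%.

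Among regions with a mean signal of at least 20, the largest increases started at or near the lowest value of the table. In Frmd4a (chr2:4408988-4409928), a scaffold of cell polarity, the signal was 0.92 and 0.84 in serum, the lowest values of the table, equal to 1 read, and 70.4 and 38 with FGF-2. Counted against a floor of 3 reads in each library the deposited signal is at least 20.6-fold higher (limma adjusted p = 2.6e-11). Frmd4a mRNA went from 0.704 ± 0.27 to 6.14 ± 2.32 CPM (SD, n = 3), a log2 rise of 3.22 ± 0.41. CPM of single genes, here and below, use library totals adjusted by TMM factors. Cpe, which codes for the prohormone-processing carboxypeptidase E, had 0.92 and 0.84 against 62.8 and 40 at chr8:64634758-64635692, at least 19.5-fold higher. Its mRNA was high in both groups and rose by 0.49 ± 0.14 on the log2 scale, a call lost with upper-quartile scaling (0.35, edgeR adjusted p = 0.064), with library totals (0.15) and without serum library 1 (adjusted p = 0.054), serum library 2 (0.11) or FGF-2 library 2 (0.064) of the RNA set. Mboat1, a lysophospholipid acyltransferase, had 0.92 and 0.84 against 49.5 and 34 (chr13:30169693-30170417), at least 15.8-fold higher, and its mRNA went from 102 ± 56 to 983 ± 220 CPM.

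Sdc1 codes for syndecan-1, a cell-surface heparan sulfate proteoglycan that binds FGF-2. Its region at chr12:8783419-8785092 had signals of 0.92 and 6.69 in serum and 107 and 67 with FGF-2, a log2 difference of 4.48 ± 0.47 (limma adjusted p = 1.4e-18). A second, narrower region closer to the start (chr12:8777859-8778180) was at 0.92 and 0.84 and then 16.2 and 13 (3.04 ± 0.86). That second call was lost without FGF-2 library 1 (adjusted p = 0.28) and without FGF-2 library 2 (0.16). Sdc1 mRNA rose from 458 ± 187 to 2918 ± 273 CPM, while H3K27ac at its promoter was 221 and 163 in serum and 179 and 237 with FGF-2, a log2 difference of 0.12 ± 0.26 that did not pass.

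Further large increases lay in genes of several kinds. Dgki, a diacylglycerol kinase, had 0.92 and 0.84 against 60.9 and 25 (chr6:37246091-37246841), at least 16.3-fold higher, with no RNA read counted in any library. Its call was lost without FGF-2 library 1 (log2 3.79, adjusted p = 0.06). Ppm1l, a protein phosphatase, had 0.92 and 2.51 against 65.6 and 36 (chr3:69439587-69440834), and Dlgap4, a postsynaptic-density scaffold, 0.92 and 4.18 against 44.7 and 33 (chr2:156647441-156648143). The mRNA of Dlgap4 rose by 1.44 ± 0.13 and that of Ppm1l by 1.91 ± 0.47 on the log2 scale, the latter not past the threshold without the count filter (adjusted p = 0.072). Prune2 had 3.68 and 0.84 against 53.3 and 25 (chr19:16965862-16966472), a log2 difference of 3.68 ± 0.63 lost without FGF-2 library 1 (3.15, adjusted p = 0.068). Lemd1 had a second region that rose, with 0.92 and 5.01 against 44.7 and 40 (chr1:132195718-132196265), although 1 RNA read was counted for it in all 6 libraries together. Groups that do not overlap were a condition for naming these regions and say nothing further about them. FGF-2 library 1 was the higher of its group in each of the 5.

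With the same limit on mean signal, the largest decrease was in Gm31763, a predicted gene (chr10:67022549-67023107), where the signal was 50.7 and 36.8 in serum and 4.75 and 3 with FGF-2, a log2 difference of -3.20 ± 0.52 (limma adjusted p = 7.5e-08). Suco (chr1:161868366-161869501) followed with 71.8 and 69.4 against 7.61 and 13 (-2.70 ± 0.39). No RNA read was counted for Suco in any library, and such zeros also stand for genes as widely expressed as Cald1 and Pacsin2, so a count of 0 or a few reads is not read here as a gene that is off or low. Sept8, a septin of the cytoskeleton, had 89.3 and 71.0 against 13.3 and 22 (chr11:53525004-53526414), and its mRNA fell by 0.91 ± 0.14 on the log2 scale. Abhd17c, a depalmitoylating enzyme, had 111 and 63.5 against 22.8 and 21 (chr7:84127861-84129521, log2 -1.90 ± 0.34), with mRNA at 49.1 ± 7.5 and 50.1 ± 1.9 CPM. Each of these 4 regions passed in every fit that left out 1 library.

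Cyp11a1 codes for the side-chain cleavage enzyme that begins steroid synthesis, and both regions of its first intron fell. The first (chr9:58002665-58003485) had 43.3 and 30.9 in serum and 12.4 and 2 with FGF-2, a log2 difference of -2.57 ± 0.51 (adjusted p = 1.6e-05) that shrank to -1.49 without FGF-2 library 2 (adjusted p = 0.047). The second (chr9:58003611-58004527) had 57.1 and 45.1 against 13.3 and 24, -1.45 ± 0.38, and was lost without FGF-2 library 1 (-1.05, adjusted p = 0.2). Its promoter had signals of 144 and 138 in serum and 130 and 182 with FGF-2, which overlap. Cyp11a1 mRNA was 124 ± 19 CPM and 73.7 ± 29 CPM, and its fall of 0.76 ± 0.26 on the log2 scale was lost without the count filter and without any of 4 RNA libraries (serum 1 and 3, FGF-2 1 and 2, adjusted p 0.088 to 0.13).

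In some genes a single FGF-2 library set the size of the fall. Of the regions below, that of Frmd4b passed in the authors' deposited test (adjusted p = 0.016). Those of Gfod1 (0.0501) and Ggta1 (0.448) did not. Gfod1 (chr13:43232127-43232805) had 40.5 and 32.6 in serum and 17.1 and 3 with FGF-2, a log2 difference of -2.13 ± 0.47 that became -3.22 without FGF-2 library 1 and -1.04 without FGF-2 library 2 (adjusted p = 0.22). The mRNA of Gfod1 went the other way, from 31.1 ± 8.6 to 210 ± 43 CPM. Ggta1, the enzyme that makes the alpha-gal sugar epitope, had 43.3 and 34.3 against 20.9 and 3 (chr2:35444418-35445245), -2.08 ± 0.46, which became -3.30 without FGF-2 library 1 and -0.85 without FGF-2 library 2 (adjusted p = 0.35). Frmd4b, a relative of Frmd4a, had 30.4 and 35.1 against 4.75 and 10 (chr6:97607140-97607787, -2.08 ± 0.49), and the difference in its low mRNA (-0.94 ± 0.37) missed the threshold with an adjusted p of 0.061.

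**Figure D3:**
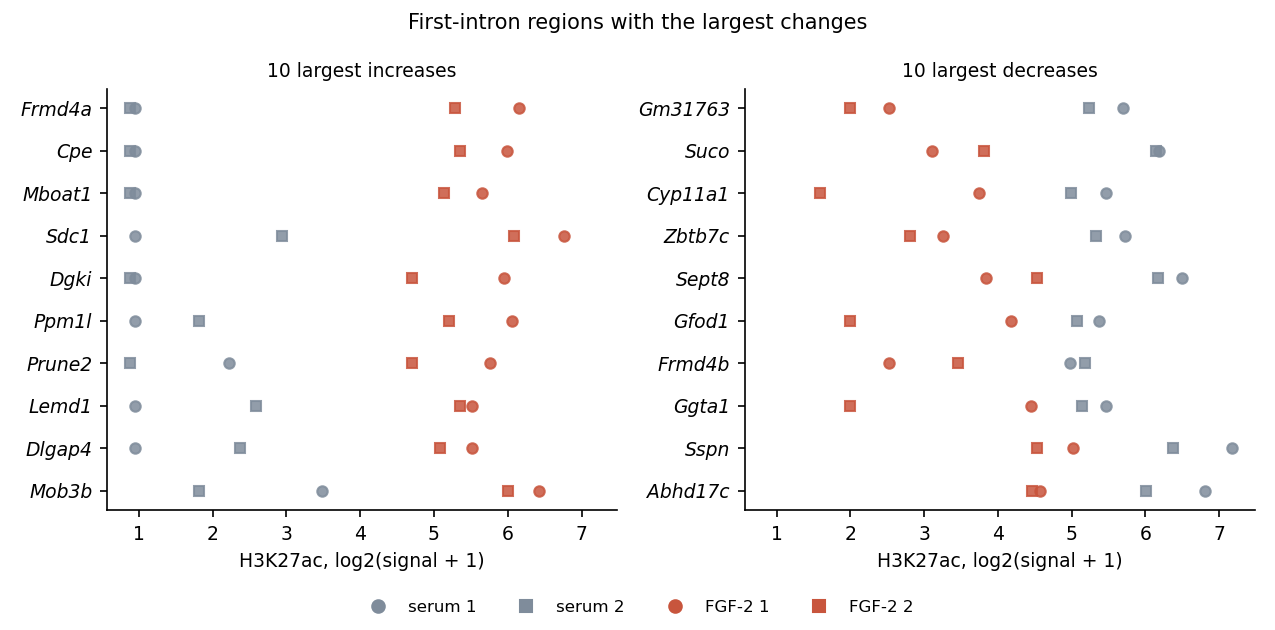
H3K27ac as log2(signal + 1) in each library for the 10 largest rises (left) and the 10 largest falls (right), 1 row per region named by its gene, with serum in grey, FGF-2 in red, library 1 as circles and library 2 as squares. In the rises of Frmd4a, Cpe, Mboat1 and Dgki both serum points lie at the lowest value of the table, and in the falls of Gfod1 and Ggta1 the FGF-2 points stand well apart.

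Of the 1912 genes 436 held a region that rose and 76 held at least 3, while 133 held a region that fell and 7 held at least 3. Neighbouring regions of an intron are not independent. Apbb2, an adaptor of the amyloid precursor protein, had the most, with 11 of its 13 regions higher and log2 differences of 0.75 to 3.30 over all 13. Their summed signal was 283 and 264 in serum and 860 and 689 with FGF-2, a description of a gene chosen for its number of rises. The number that passed was 9 and 11 without serum library 1 and 2, but 2 without FGF-2 library 1 and 6 without FGF-2 library 2. Apbb2 mRNA went from 217 ± 65 to 527 ± 65 CPM (log2 1.28 ± 0.20), and its promoter signal from 964 and 914 to 1773 and 1440 (0.77 ± 0.22).

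Mob3b, of the MOB family of kinase regulators, rose at all 10 of its regions, by 0.94 to 3.58. Their sum was 288 and 186 in serum and 727 and 669 with FGF-2, and 10, 7, 5 and 5 of them passed without serum 1, serum 2, FGF-2 1 and FGF-2 2. The region with the smallest adjusted p (chr4:35140601-35141697) had 10.1 and 2.51 against 84.6 and 63, a log2 difference of 3.57 ± 0.44. Reps1, an endocytic adaptor, rose at all 7 regions, by 1.86 to 3.18, with sums of 82.9 and 91.1 against 506 and 340. Of these, 4 passed without FGF-2 library 1 and 5 without FGF-2 library 2. Reps1 mRNA went from 84.7 ± 28 to 708 ± 154 CPM, a log2 rise of 3.07 ± 0.25, and Mob3b mRNA from 42.7 ± 16 to 141 ± 17 CPM.

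Not every region of such a gene moved together. Sh3pxd2a, the scaffold Tks5 of invadopodia, had 7 regions higher and 1 lower of 10. The lower one (chr19:47303579-47304218) had 34.1 and 24.2 in serum and 0.95 and 5 with FGF-2, -3.12 ± 0.65, and lies 10533 bases from a start other than the one nearest to the 7 that rose. The largest rise by limma (chr19:47441430-47442069) was from 2.76 and 17.6 to 41.8 and 51, a log2 difference of 2.5 that was 1.35 without serum library 1. In the authors' deposited test that region did not pass (log2 2.19, adjusted p = 0.222), while 4 other regions of Sh3pxd2a were higher. Without FGF-2 library 1 or 2, 4 rises and the fall passed, and with the median of all regions set to 0 there were 5 rises and 2 falls. The mRNA rise of Sh3pxd2a (0.36 ± 0.13) was small and was lost with upper-quartile scaling (adjusted p = 0.2).

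Sspn was among the 7 genes with at least 3 falling regions. It codes for sarcospan, of the dystrophin complex, and 3 of its 5 regions fell, the largest at chr6:145945810-145946195 from 143 and 81.9 to 31.4 and 22 (-2.0 ± 0.32). The sums over its 5 regions were 1280 and 1111 in serum and 749 and 574 with FGF-2. Sspn mRNA fell by 1.69 ± 0.15 on the log2 scale, from 2434 ± 232 to 754 ± 73 CPM, while its promoter kept a signal of 21657 and 16252 in serum and 16578 and 18412 with FGF-2, which overlap. Only 1 of the 3 regions passed without FGF-2 library 1 and 1 without FGF-2 library 2.

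Zbtb7c, a zinc-finger factor, had 3 of 5 regions lower, and these 3 also passed in the authors' deposited test. Of the genes below, that test called 1 lower region each in Nfyc, Cbfa2t3 and Arhgap6, and none in Rabep1 or Maml3. In Nfyc 3 of 4 regions fell (sums 342 and 261 against 165 and 138), with 2, 2, 1 and 1 passing as serum 1, serum 2, FGF-2 1 and FGF-2 2 were left out. Cbfa2t3, the co-repressor ETO2, had 3 of 6 lower and mRNA that went from 10.8 to 2.24 CPM on average (-2.15 ± 0.39), but no region passed without FGF-2 library 1 and 1 each without serum library 1 and 2. In Rabep1, an effector of the endosomal GTPase Rab5, 3 of 7 were lower, and in Maml3, a Notch co-activator, 3 of 8, with none passing without serum library 1 and 1 or 2 without each of the others. Arhgap6, a GTPase-activating protein, had 1 higher and 3 lower of 21, and only 1 lower region passed without serum library 1 or either library of the FGF-2 group. Zbtb7c was the only 1 of these 7 genes with the same number of called regions in all 4 fits that left out a library.

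**Figure D4:**
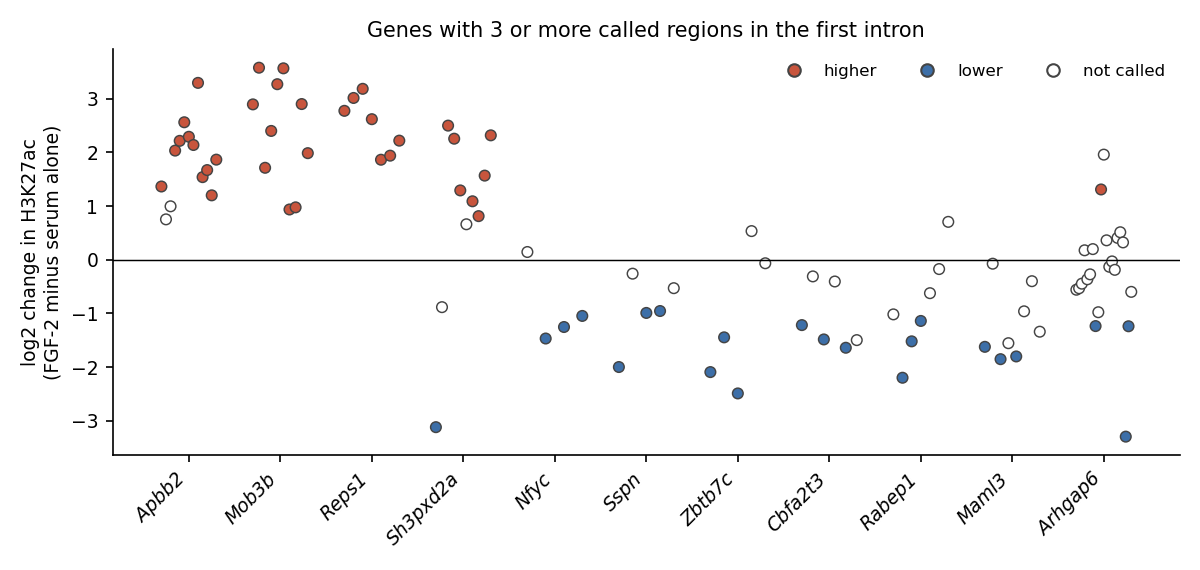
Log2 difference in H3K27ac (FGF-2 minus serum) of every first-intron region in 11 genes with at least 3 called regions, each point a region and the regions of a gene in order along the chromosome. Red points rose, blue points fell and open points were not called. All 10 regions of Mob3b and all 7 of Reps1 are red, and the single blue point of Sh3pxd2a stands at -3.12.

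Genes of FGF signalling were read through lists by role, with each region counted under the gene of the nearest start. For 175 of the 4787 regions that is not the gene whose intron holds the region. Over all regions 12.6% rose and 3.73% fell (median log2 0.11), and over the first-intron regions 15.9% and 3.38% (0.20). Both sets of values stand beside each list below. Among FGF receptors and heparan sulfate proteoglycans with their enzymes, 9 of 45 regions rose and 1 fell (median log2 0.35). The rises were 3 of 10 in Ndst1 and 2 of 12 in Ext1, both enzymes of heparan sulfate synthesis, 2 of 2 in Sdc1, 1 of 6 in Gab1, a docking protein of receptor kinases, and 1 of 3 in Sdc4, another syndecan, and the fall was in Ext1. Only 1 rise and 1 fall of this list passed without FGF-2 library 1, 2 and 0 without FGF-2 library 2, and 3 and 2 with the median of all regions set to 0. Of 14 regions in secreted ligands 4 rose and 3 fell (median -0.25), and all 4 rises were among the 5 regions of Fgf2 itself. A single rise and a single fall of these passed without FGF-2 library 1, 3 rises and 0 falls without FGF-2 library 2, and 1 fall when either serum library was omitted.

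The region of Fgf2 with the smallest p (chr3:37356597-37357314) had 12.0 and 8.36 in serum and 83.7 and 51 with FGF-2, a log2 difference of 2.59 ± 0.40 (adjusted p = 9.7e-09). Its neighbour (chr3:37357473-37358103) had 6.45 and 4.18 against 47.6 and 24, a call lost without FGF-2 library 1 (adjusted p = 0.16). The promoter of Fgf2 rose too, from 155 and 85.2 to 260 and 264 (1.18 ± 0.26), and its mRNA from 3.71 ± 2.1 to 25.7 ± 5.6 CPM. The falls were 2 of 4 regions in Pdgfc, a platelet-derived growth factor (chr3:81057778-81059180, 83.8 and 87.8 against 40.9 and 36, and a narrower one), and 1 of 2 regions of Sema3a, a secreted guidance cue. Both Pdgfc calls were lost without FGF-2 library 1 (adjusted p = 0.086 and 0.065) or 2 (0.13 and 0.23), the narrower also without serum library 1 (0.15) or 2 (0.11), and that of Sema3a without FGF-2 library 2 (log2 -0.60, adjusted p = 0.67), serum library 1 (0.12) or serum library 2 (0.054), while it was -2.70 without FGF-2 library 1.

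Along the RAS, ERK and PI3K cascade 4 of 27 regions rose and 1 fell (median 0.30). Araf, a RAF kinase, had 3 of its 5 regions higher, the strongest at chrX:20814934-20817141 with 21.2 and 22.6 in serum and 170 and 112 with FGF-2 (log2 2.61 ± 0.32, adjusted p = 5e-14). Araf mRNA was 116 ± 14 CPM in serum and 117 ± 5.2 CPM with FGF-2, with a log2 difference of 0.02 ± 0.11 and an adjusted p of 0.92. With RNA scaled to library totals alone the difference was -0.32 (edgeR adjusted p = 0.030), where the median of all genes was -0.36. The remaining calls were 1 rise in Mras, a RAS relative, and 1 fall in Pik3cb, a PI3-kinase subunit, each lost without FGF-2 library 1 (adjusted p = 0.13 and 0.3), that of Pik3cb also without FGF-2 library 2 (0.24).

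The list of feedback and other negative or positive regulators of RAS and ERK held 18 regions, in Errfi1, Lrig1, Nf1, Rasa3, Sos1 and Spred2, of which 3 rose and none fell (median 0.35), and all 3 were in Errfi1, an inhibitor of EGF receptor signalling. The first (chr4:150857438-150858420) had 1.84 and 0.84 against 39.9 and 25, a log2 difference of 3.84 ± 0.69 with an adjusted p of 0.062 without FGF-2 library 1. Without that library none of the 3 passed, and 1 did without FGF-2 library 2. Errfi1 mRNA went from 1.5 ± 0.75 to 21.7 ± 0.70 CPM, a log2 rise of 3.93 ± 0.26. Spred2, which blocks RAF activation, had 6 regions with log2 differences of 0.15 to 0.89, none of which passed, and mRNA that rose from 60.8 ± 8.3 to 351 ± 36 CPM.

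For ETS and AP-1 factors 6 of 33 regions rose and none fell (median 0.26). Etv6, an ETS repressor, had 5 of these in 12 regions, with the largest at chr6:134124680-134125228 (0.92 and 3.34 against 45.7 and 22, log2 3.5 ± 0.66). The remaining rise was 1 of 6 regions with Jun as the nearest start. A single call of this list remained without FGF-2 library 1 and 1 without FGF-2 library 2, while without serum library 1 there were 10, and that of Etv6 at chr6:134124680-134125228 had an adjusted p of 0.1 without FGF-2 library 1. Etv6 mRNA rose by 1.57 ± 0.11 on the log2 scale. For immediate-early genes there were 6 regions, with the nearest start in Klf4, Klf9 or Nr4a2. Limma called none of them, with 2 higher at an unadjusted p under 0.05, nor did edgeR on the recovered reads.

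In the TGF-beta and BMP list 11 of 39 regions rose and 1 fell (median 0.58). All 6 regions of Acvr1, a BMP type I receptor, rose, by 0.96 to 2.55, the largest at chr2:58505429-58505906 from 2.76 and 7.52 to 39.9 and 26. Acvr1 had too few counted RNA reads to be tested, with 2 to 4 reads per serum library and 10 to 16 with FGF-2. Smad3, the signal transducer of TGF-beta, had 5 of 15 regions higher, such as chr9:63745531-63747840 from 105 and 65.2 to 173 and 156 (0.98 ± 0.27, adjusted p = 0.27 without FGF-2 library 1, 0.13 without FGF-2 library 2, and a value of 0.64 without serum library 2). Smad3 mRNA rose from 38.3 ± 3.6 to 161 ± 7.8 CPM. The fall was 1 of 7 regions in Smurf1, a ubiquitin ligase for SMADs, lost without any 1 of the 4 libraries. No call of the list passed without FGF-2 library 1 and 1 did without FGF-2 library 2. The list had 5 rises with the median of all regions set to 0, with quantile normalization or with edgeR and TMM factors, and 3 in the authors' deposited test.

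Genes of steroidogenesis and of adrenocortical identity held 18 regions, of which 7 rose and 2 fell (median 0.31). The 2 falls are those of Cyp11a1 described above. The rises do not form 1 step of the pathway. They include 3 of 7 regions with Mc2r, the ACTH receptor, as the nearest start, and the single regions of Scarb1, the HDL receptor, and Dab2, an endocytic adaptor. The Mc2r regions lie upstream of that gene in the first intron of another, unnamed transcript, and the strongest had 6.45 and 8.36 in serum and 71.3 and 76 with FGF-2 (3.16 ± 0.41). Mc2r itself had 0 to 2 RNA reads per library. The log2 differences were 2.12 in Scarb1 and 2.21 in Dab2, and the regions in Npc1, Por and Soat1 did not pass. Without FGF-2 library 1 the list had 2 rises and 1 fall, and without FGF-2 library 2 it had 2 and 2. Scarb1 and Dab2 were chosen after their values were seen, as were the genes named only by their counts in the other lists.

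The cAMP pathway had 14 rises and 3 falls in 49 regions (median 0.33). Pde4d, a phosphodiesterase that breaks down cAMP, had 7 of 11 higher, among them chr13:108683720-108684872 from 12.0 and 10.9 to 75.1 and 61 (2.47 ± 0.39), with 0 to 2 RNA reads per library. Adcy7, an adenylyl cyclase, rose from 13.8 and 30.1 to 120 and 101 at chr8:88278515-88279718 (2.37 ± 0.33) and at its promoter from 563 and 486 to 1066 and 1018 (0.99 ± 0.23), while its mRNA was 549 ± 128 and 551 ± 104 CPM. The other rises were 2 of 2 in Akap6, an anchor of protein kinase A, 2 of 4 in Crtc1, a co-activator of CREB, 1 of 3 in Prkacb, a catalytic subunit of the kinase, and 1 of 13 in Sik3, a kinase that holds back CRTC co-activators. The falls were 2 of 5 in Prkar2a, a regulatory subunit, both lost without serum library 1 (adjusted p = 0.25 and 0.07), and another of the 13 in Sik3. Without FGF-2 library 1, 4 rises and 3 falls of the list passed, without FGF-2 library 2 it was 8 and 2, and with quantile normalization 8 and 4.

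Notch, Wnt and YAP genes had 11 rises and 4 falls in 57 regions (median 0.14). Maml2 had 6 higher and 1 lower of its 23, with the smallest p at chr9:13608781-13609446 from 15.7 and 25.9 to 92.2 and 75 (1.99 ± 0.34), and its relative Maml3 had the 3 falls given above. The list had 11 rises and 0 falls without serum library 1, 3 and 3 without FGF-2 library 1, 5 and 1 without FGF-2 library 2, and 6 of each with quantile normalization. Tead1, the DNA-binding partner of YAP, rose at 2 of 6 regions, for instance chr7:112718022-112719109 from 15.7 and 15.9 to 58.0 and 54. Of 144 regions in genes of the actin cytoskeleton and adhesion 13 rose (9.03%) and 6 fell (4.17%), with a median of 0.24. The share that rose was under the 12.6% of all regions, and the share that fell was near their 3.73%. Tns3, which codes for tensin 3, had the rise with the smallest p, from 10.1 and 15.0 to 98.0 and 77 at chr11:8463505-8464599 (2.72 ± 0.37), and Actn1, alpha-actinin 1, had 5 of 8 regions higher. The falls included 1 in Myo1e, a class I myosin, lost without serum library 1 (adjusted p = 0.19) or FGF-2 library 1 (0.061), and 1 in Cald1, caldesmon, dropped out when serum library 1 (adjusted p = 0.19) or either of the FGF-2 libraries (0.19 and 0.24) was omitted. Without FGF-2 library 1 the actin list had 3 rises and 1 fall, and with the median of all regions set to 0 it had 9 of each.

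Among writers, erasers and readers of acetylation 7 of 27 regions rose and 2 fell, both in Hdac7, a class IIa histone deacetylase (median 0.34). At chr15:97839632-97840753 in Hdac7 the signal went from 60.8 and 47.6 to 12.4 and 18 (-1.78 ± 0.39), and Hdac7 mRNA fell by 1.23 ± 0.11 on the log2 scale. The list had 1 rise and 2 falls without FGF-2 library 1, 2 and 1 without FGF-2 library 2, and 3 and 4 with quantile normalization. The second Hdac7 region was lost without FGF-2 library 2 (-0.68, adjusted p = 0.47). Nuclear receptors had no rise by limma or by edgeR on the recovered reads (2 higher at an unadjusted p under 0.05) and 2 falls in 17 regions (median -0.32), both in Nr6a1, the germ cell nuclear factor, and both lost without serum library 1 (adjusted p = 0.067 and 0.099). In the list of FOXO, p53 and cell-cycle inhibitor genes 3 of 21 rose and 2 fell (median -0.13). Cdkn1a, the p21 inhibitor of cyclin-dependent kinases, rose from 21.2 and 17.6 to 75.1 and 61 at chr17:29095598-29096703 (1.76 ± 0.36, adjusted p = 2.8e-05) with mRNA at 246 ± 98 and 1118 ± 348 CPM, and the rest were 2 rises in Bcl6 and falls in Bcl2 and Ccnd3, a D-type cyclin. Both Bcl6 calls were lost without FGF-2 library 1 (adjusted p = 0.54 and 0.11) or FGF-2 library 2 (0.087 and 0.073) and 1 of them without serum library 2 (0.064), the Bcl2 call when serum library 1 (0.16) or FGF-2 library 2 (0.64) was omitted, and the Ccnd3 call without FGF-2 library 1 (0.34). The mitosis list held a single region, in Brca1, at a log2 difference of 0.78 that did not pass.

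RNA was compared for the genes nearest to the regions. Of the 1912 genes 1459 had enough counted reads to test with edgeR, and 391 (26.8%) rose and 407 (27.9%) fell, beside 22.1% and 24.2% of all genes tested. Of 328 tested genes with a region that rose and none that fell, 155 (47.3%) rose in RNA and 53 (16.2%) fell, with a median log2 difference of 0.36. Of 77 genes with falling regions only, 11 (14.3%) rose and 31 (40.3%) fell, with a median of -0.35. Genes with no called region were 1043, of which 221 (21.2%) rose and 320 (30.7%) fell. In the 61 tested genes with at least 3 rising regions, 42 (68.9%) rose and 4 (6.56%) fell, with a median of 1.26. A further 157 genes had no RNA read in any library and 49 were not among the counted genes.

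These shares are counts of the genes and carry no test of their own. With FGF-2 library 1 of the ChIP set left out, 57 of 89 genes with rising regions only rose in RNA and 6 fell, and 9 of 46 with falling regions only rose and 17 fell. With RNA scaled to library totals alone, under which the median of all genes was -0.36, rising regions went with 114 RNA rises and 93 falls and falling regions with 4 and 48. Region by region, 341 rising regions lay with an mRNA that rose and 74 with one that fell, and 43 falling regions with one that fell and 17 with one that rose. Over the 3830 regions whose gene was tested Pearson's r between the log2 differences was 0.345 and Spearman's rank correlation 0.312, as a description, since regions of 1 gene share 1 RNA value.

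**Figure D5:**
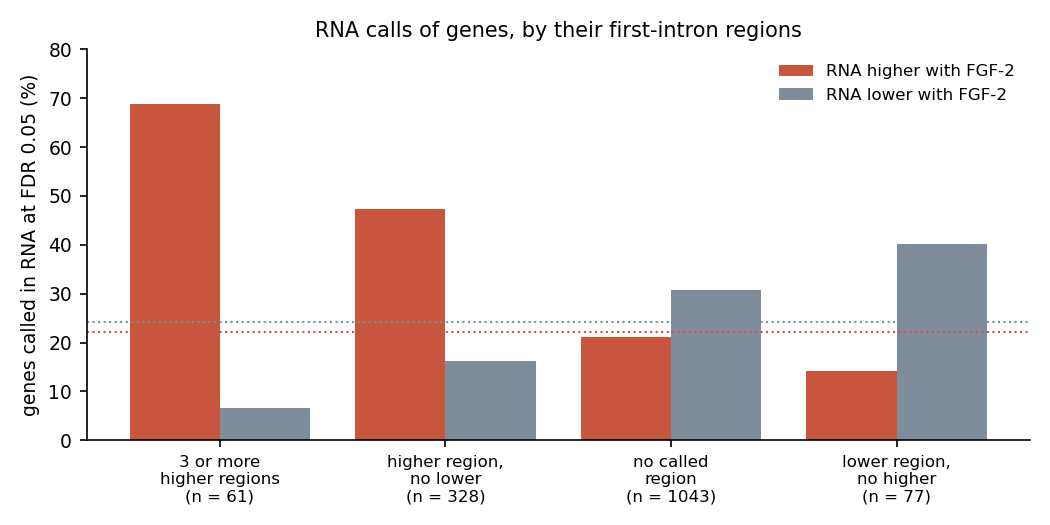
Share of tested genes whose RNA was called higher (red) or lower (grey) with FGF-2, in percent, by what their first-intron regions did, with the number of genes under each pair of bars. Dotted lines mark the shares over all genes tested, 22.1% and 24.2%. Higher calls fill 68.9% of genes with at least 3 rising regions and 47.3% of genes with rising regions only, and lower calls fill 40.3% of genes with falling regions only.

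Some genes paired a clear change of RNA with a region that went the same way. Plekhg3, a guanine nucleotide exchange factor of the actin cytoskeleton, rose from 23.0 and 10.9 to 61.8 and 66 at chr12:76551715-76552422 (1.94 ± 0.37) and from 41.2 ± 9.1 to 210 ± 15 CPM in RNA. Dip2c rose at chr13:9354211-9354746 from 12.0 and 6.69 to 47.6 and 23, a call lost without FGF-2 library 1 (1.26, adjusted p = 0.33), with an mRNA rise of 1.78 ± 0.11 on the log2 scale. Ror1, a receptor for WNT5A, fell from 23.9 and 15.9 to 7.61 and 2 at chr4:100181983-100182370 and from 81.0 ± 3.9 to 13.2 ± 3.5 CPM. Its region dropped out when serum library 1 (adjusted p = 0.17) or FGF-2 library 2 (-1.25, adjusted p = 0.26) was omitted. St5, a guanine nucleotide exchange factor, fell from 134 and 96.9 to 66.6 and 53 at chr7:109589871-109592863 and from 138 ± 10 to 35.0 ± 3.9 CPM, and its region dropped out when serum library 1 (adjusted p = 0.087) or either of the FGF-2 libraries (0.15 and 0.35) was omitted.

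In others the region and the RNA went opposite ways. Rtn4rl1, a Nogo receptor relative, fell from 26.7 and 19.2 to 2.85 and 2 at chr11:75246337-75246806 (-2.80 ± 0.68), passing without any 1 library, while its mRNA rose from 41.7 ± 2.9 to 162 ± 26 CPM. A region of Akap6 (chr12:52782385-52782754) was at 0.92 and 0.84 in serum and 35.2 and 13 with FGF-2, at least 9.14-fold higher, and Akap6 mRNA fell from 11.0 ± 2.6 to 0.980 ± 0.077 CPM. That region was lost without FGF-2 library 1 (adjusted p = 0.28). Plekha7, of the zonula adherens, rose from 1.84 and 0.84 to 13.3 and 16 (chr7:116202536-116202747) as its mRNA fell by 2.42 ± 0.20, a region lost without FGF-2 library 1 (adjusted p = 0.21) or 2 (0.26). Sik3 fell from 19.3 and 10.9 to 6.66 and 1 at chr9:46035636-46035963 as its mRNA rose from 64.3 ± 5.1 to 161 ± 12 CPM, and this region dropped out when either serum library (adjusted p = 0.3 and 0.059) or FGF-2 library 2 (0.52) was omitted. Of these 4 regions that of Rtn4rl1 also holds the start of a predicted gene.

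Of 21 genes listed for the study's biology, 3 had a first-intron region, namely Prdm1, Il11 and Spred2. Prdm1, the repressor Blimp-1, rose from 6.45 and 12.5 to 40.9 and 27 at chr10:44519126-44519581 (1.77 ± 0.47, adjusted p = 0.0021, and 0.19 without FGF-2 library 1). Prdm1 had no RNA read in the 3 serum libraries and 15.4 ± 5.0 CPM with FGF-2. The region of Il11, an interleukin-6 family cytokine (chr7:4778375-4778742), had 10.1 and 14.2 in serum and 22.8 and 32 with FGF-2, a log2 difference of 1.11 ± 0.46 that missed the threshold (adjusted p = 0.0825). Il11 mRNA was 10.7 ± 11 and 807 ± 189 CPM, and its promoter rose from 10.1 and 10.9 to 37.1 and 37 (1.73 ± 0.44).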

How the data were processed

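H3K27ac ChIP-seq was available for 2 libraries per group and poly(A) RNA-seq, from a directional kit, for 3. The members and gene lists were chosen with earlier results of these data known.

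Per the submitters' processing notes reads were handled on mm10 with STAR 2.5.2a, MACS2 2.2.6 and HTSeq 0.10.0, and DESeq2, DiffBind, ChIPseeker, bedtools 2.15.0, SAMtools 1.1 and bcl2fastq are also named. The deposited signal values per region were whole reads, with a minimum of 1, times a library factor (0.921, 0.836, 0.951 and 1 for serum 1, serum 2, FGF-2 1 and FGF-2 2). These factors equal the smallest library's fragments over each library's to within 0.1%. All values came back as whole reads within 0.02 of a read. Whether input reads were subtracted is not given in the sources used here. The deposited table also holds the authors' log2 fold and adjusted p-value from their own test. Peak lists hold MACS2 fold enrichment as a ratio, a pileup signal and −log10 q-values per peak, with a q cutoff of 0.01 per the file headers, and were called for each library. The deposited RNA counts are raw reads per gene, and 37.0% to 43.2% of reads lay outside genes and were left out. Neither the strand setting nor the annotation of that counting is known here, and reads of a gene and its antisense or overlapping partner cannot be told apart.

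Signal was tested with limma 3.58.1 (R 4.3.3) on log2(signal + 1) over all 40772 regions, with trend and robust settings and Benjamini-Hochberg adjustment at 0.05. Fold changes are on the log2(signal + 1) scale, which understates changes of low regions. RNA was tested with edgeR 4.0.16 (TMM, filterByExpr, robust quasi-likelihood), with DESeq2 1.42.0 as an alternative. CPM of single genes are counts scaled to library totals adjusted by TMM factors. In the marker sums, counts were scaled to the same number of reads in genes in every library, without these factors. Python 3.11.15, pandas 2.3.3 and numpy 2.4.6 made the summaries. The scripts were tested on simulated data. A fold from a group with every library at the lowest value was taken against 3 reads per library. Such a fold is one of the deposited signal, whose lowest value may be a floor set on smaller values.

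Named regions are the 10 largest rises and falls (mean signal at least 20, groups not overlapping, 1 per gene), the 5 genes with most called regions in 1 direction, up to 3 called regions each way per list, 6 genes called the same way in RNA and up to 4 the opposite way, and 21 listed genes. All genes with at least 3 falling regions, regions holding a start, and genes that complete a small count were added after their values were seen. Sequences of the regions are not used here, and RefSeq start windows are shown in their place. Some genes that these rules name are not reported here. Replicate numbers were not used as pairs. Alternatives were other scalings, pseudocounts, filters, tests, width and overlap rules, and leaving out each library.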

Additional observations from a re-analysis of the deposited data

How the results depend on the processing

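Of the 4787 first-intron regions 760 rose and 162 fell, with a median log2 difference of 0.20. With the median of all regions set to 0, 271 fell and the median was 0.0203. With quantile normalization 475 rose and 281 fell, and the median was -0.0239. With edgeR on the recovered reads and TMM factors 256 fell and the median was 0.0733, with the replicate block added to that fit 474 rose and the median was 0.0771, and with edgeR on library fragments and the replicate block 101 fell. The authors' deposited test gave 464 and 65. Leaving out each library in turn gave 172 to 846 rises, 72 to 224 falls and medians of 0.0838 to 0.31, where the lone library left in a group is assumed to vary like those of the other group. With RNA scaled to library totals, 240 of the genes rose and 679 fell in place of 391 and 407. The cause of these changes was not tested. Same-numbered ChIP libraries deviated from their group means with a correlation of -0.217 and RNA libraries with -0.10, 0.066 and 0.38, and only 2 of 6 RNA libraries lay closest to their own number, so the numbers were not taken as pairs. The replicate block gave 593 rises and 109 falls in the ChIP set and 408 and 435 in RNA, and the crossed pairing, chosen after seeing the data, 904 and 245. A region at the lowest value in serum has no upper bound on its fold, and intervals of counting were not added to the spread of 2 libraries.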
